A study of Mus musculus with 8 samples.

Results

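The peaks described here are the intervals that the authors called in the γ-H2AX ChIP-seq library of wild-type mouse embryonic fibroblasts (MEF). Every interval on an autosome was taken, which gave 119267 of the 124947 γ-H2AX peaks. The cells were MEF of the C57BL/6 strain from embryos at stage E15.5, wild type for Hmga2, kept for 2 to 4 passages in serum-containing medium with no treatment named in the labels. The antibody was raised against H2AX phosphorylated near its C terminus (labelled H2AXS139ph). The study held 8 libraries, of HMGA2, γ-H2AX, ATM and input DNA in Hmga2 wild-type and Hmga2 knockout MEF, with 1 library for each antibody and genotype. The wild-type HMGA2 list (142818 autosomal peaks) and the wild-type ATM list (112116) serve as references. Knockout and input libraries were not analysed here. Since each list comes from 1 library, no replicate error exists, and every interval below covers counting error only.

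γ-H2AX is the histone variant H2AX carrying a phosphate near its C-terminal end. The kinases ATM, ATR and DNA-PK add it at DNA double-strand breaks, where MDC1 binds it and brings in repair factors such as 53BP1. It has also been studied at active genes, where topoisomerases and RNA polymerase II can leave breaks or strain in DNA. HMGA2 is a small chromatin protein whose AT-hooks bind the minor groove of AT-rich DNA. The series title ties HMG-dependent transcription to γ-H2AX, and the question asked of this list is where on genes and chromosomes its peaks lie.

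Examples of promoters that γ-H2AX peaks reached are printed first, because they show what the stretches under high-scoring promoter peaks look like, CpG-poor ones (Noct, Snrpa1) among them. The table used holds RefSeq promoter windows on GRCm38 (mm10 coordinates) for 16457 autosomal protein-coding genes. At 651 of these genes a γ-H2AX peak overlapped the 250 bases before a listed start. Printed are these bases 5′ to 3′ on the gene's strand, with the bases inside the γ-H2AX peak in capitals. Noct encodes nocturnin, a circadian nucleotide phosphatase (chr3:51224197-51224446, plus strand). Snrpa1 encodes a protein of the U2 spliceosomal particle (chr7:66060086-66060335, plus strand). Zswim4 encodes a SWIM zinc-finger protein (chr8:84237043-84237292, minus strand). H3f3b encodes the replacement histone H3.3 (chr11:116024505-116024754, minus strand).
Noct: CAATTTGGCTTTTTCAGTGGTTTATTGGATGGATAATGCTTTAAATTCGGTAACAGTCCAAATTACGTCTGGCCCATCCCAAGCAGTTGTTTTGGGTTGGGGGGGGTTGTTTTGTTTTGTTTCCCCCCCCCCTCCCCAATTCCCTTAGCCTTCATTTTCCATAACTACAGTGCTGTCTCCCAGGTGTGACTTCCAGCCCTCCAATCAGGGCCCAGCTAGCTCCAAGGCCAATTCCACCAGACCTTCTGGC
Snrpa1: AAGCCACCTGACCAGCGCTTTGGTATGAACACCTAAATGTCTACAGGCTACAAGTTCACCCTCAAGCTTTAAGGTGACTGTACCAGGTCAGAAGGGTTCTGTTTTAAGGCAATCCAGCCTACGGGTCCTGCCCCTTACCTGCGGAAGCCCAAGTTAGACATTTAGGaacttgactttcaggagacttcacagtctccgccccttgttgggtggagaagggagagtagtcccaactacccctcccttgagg
Zswim4: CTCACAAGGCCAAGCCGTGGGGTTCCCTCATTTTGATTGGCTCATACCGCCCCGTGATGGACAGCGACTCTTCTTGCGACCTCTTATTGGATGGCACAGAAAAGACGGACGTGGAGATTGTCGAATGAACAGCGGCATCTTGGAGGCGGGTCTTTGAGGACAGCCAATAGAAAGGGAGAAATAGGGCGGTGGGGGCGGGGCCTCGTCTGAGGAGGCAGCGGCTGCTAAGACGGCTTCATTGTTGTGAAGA
H3f3b: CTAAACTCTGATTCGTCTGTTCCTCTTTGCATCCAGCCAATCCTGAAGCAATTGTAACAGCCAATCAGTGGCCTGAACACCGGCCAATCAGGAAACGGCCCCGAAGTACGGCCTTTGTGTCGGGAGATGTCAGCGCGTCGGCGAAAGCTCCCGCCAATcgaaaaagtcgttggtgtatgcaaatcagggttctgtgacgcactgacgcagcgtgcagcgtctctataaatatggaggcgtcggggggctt

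Promoters were ranked by peak score, with predicted genes (symbols with Gm or Rik) left out. The peak at Noct had the highest score of those that then reached such a 250-base stretch, 69.2, and covered all 250 bases. The peak score is the caller's -10 times log10 of p, so 20 stands for the authors' threshold. At Snrpa1 the peak (score 55.8) ended 85 bases before the start, and at Zswim4 (score 53.8) it ran from 379 bases before to 9 bases after it. The H3f3b peak (score 50.5) lay between 290 and 93 bases before the start. The 4 stretches held 2, 4, 15 and 19 CpG dinucleotides for Noct, Snrpa1, Zswim4 and H3f3b in turn. Other promoters among the 8 highest in this ranking were those of Carnmt1, Tmcc2, Trdmt1 and Zfp322a. The Noct and H3f3b stretches each held the letters of the CCAAT box (CCAAT, or ATTGG for the other strand) 4 times. Zswim4 held CCAAT 1 time and ATTGG 2 times. Carnmt1, Tmcc2 and Zfp322a held ATTGG 1 time each, and Snrpa1 and Trdmt1 held neither. At least 1 copy stood in 36.2% of all 16457 promoters.

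Across the list, γ-H2AX peaks were narrow and mostly near the threshold. The median width was 168 bp, and 95 peaks were wider than 500 bp. The median score was 23.6, with 10.4% of peaks at 30 or more and 402 peaks at 50 or more. Together the peaks covered 20.6 Mb, or 48.5 peaks per Mb of autosome. Between autosomes the density ran from 42.3 per Mb on chromosome 7 to 53.9 on chromosome 3. The HMGA2 and ATM lists had like widths (medians of 169 and 167 bp) and 58.0 and 45.6 peaks per Mb.

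γ-H2AX peaks lay in gene bodies and near gene ends more often than their number and chromosome would give, and less often between genes. A peak was placed by its midpoint, and its share was set beside the exact mean over all circular rotations of the list within each autosome, which equals the part of the autosome that the place covers. Gene bodies held 65457 peaks, 54.9% (95% Wilson interval 54.6 to 55.2), where rotations gave 48.2%, a ratio of 1.14. Windows of 1 kb on either side of an annotated gene start or end held 7.36% (7.21 to 7.51) against 6.19%, a ratio of 1.19. The space between genes held 42.4% (42.1 to 42.6) against 49.4%, a ratio of 0.857. Both genic ratios lay above 1 in 19 of 19 autosomes, from 1.08 to 1.19 for bodies and from 1.00 to 1.37 for ends, and the intergenic ratio lay below 1 in all 19.

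**Figure D1:**
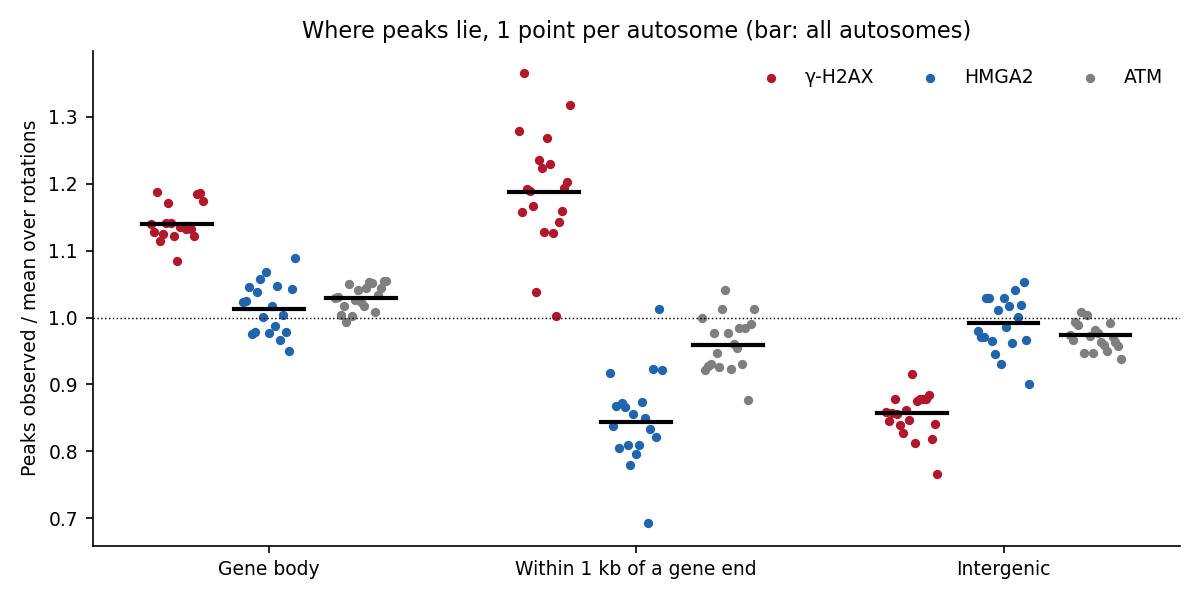
Ratio of observed peaks to the mean over rotations (y axis) for gene bodies, 1 kb around gene ends and intergenic space, for γ-H2AX (red), HMGA2 (blue) and ATM (grey). Each point is 1 of 19 autosomes and each bar the value over all autosomes; the γ-H2AX points for gene bodies lie between 1.08 and 1.19, and for intergenic space all lie below 1.

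The references did not share that order. HMGA2 peaks had a gene body ratio of 1.01, above 1 in 12 of 19 autosomes, and a gene end ratio of 0.843. For ATM, the ratios were 1.03 for bodies and 0.958 for ends. Shifting the γ-H2AX list by only 50 to 100 kb, in 12 fixed steps, keeps its density along the chromosome. Against these shifts the body ratio was 1.04 and the end ratio 1.11, so more of the gene body excess than of the gene end excess went with the wider region a peak lay in. HMGA2 had a body ratio of 1.04 against its own shifts, the same as γ-H2AX, and ATM had 1.00.

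Protein-coding genes carried the higher ratios. Their bodies held 55563 γ-H2AX peaks (ratio 1.17), and their ends 4918 (ratio 1.37). Long non-coding RNA genes had ratios of 1.09 and 1.18. Pseudogenes fell below the rotation mean in bodies (0.774) and at ends (0.828). HMGA2 was as low there (0.781 and 0.793), while ATM had 0.984 and 0.937. The cause was not tested. The end ratio also grew with the peak score. It was 1.15 for scores of 20 to 22, 1.21 for 25 to 30, 1.31 for 30 to 35 and 1.48 for 40 to 50, and then 1.24 over the 402 peaks of 50 or more, where 5.49% to 10.7% at ends was the interval. Corresponding HMGA2 values stayed between 0.818 and 0.874 below a score of 50, and ATM values moved between 0.818 and 1.04 without order.

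Gene starts, not 3′ ends, carried the gene end excess. Strand came from the promoter table, which holds no gene of chromosome 18. Within 1 kb of the start lay 2.14% of γ-H2AX peaks (2.06 to 2.23) where even density gives 1.26%, a ratio of 1.70. Around the 3′ end the ratio was 1.05, and against shifts of 50 to 100 kb it was 0.971. HMGA2 peaks were below even density at both sides (0.784 at starts, 0.867 at 3′ ends), while ATM peaks stood at 0.975 at starts, within counting error of even density, and at 0.927 at 3′ ends.

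In steps of 200 bp, γ-H2AX peaks formed a shoulder on each side of the start with a dip between them. The ratio was 1.99 at 600 to 200 bp before the start (315 peaks in each of both steps), fell to 1.32 at 200 to 400 bp after it, and was 1.97 at 1000 to 1200 bp after it. It was still 1.18 at 4 to 5 kb into the gene, against 1.06 at 4 to 5 kb before it. HMGA2 had its dip in the first 200 bp of the gene, at 0.344, and ATM at the same place, at 0.659. The dip of γ-H2AX thus stayed above even density, whereas those of both references lay below it.

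Promoter CpG content went with the number of γ-H2AX peaks at starts. A γ-H2AX peak within 1 kb of the start was found at 15.3% of the 16457 genes (2519), an HMGA2 peak at 8.36% and an ATM peak at 8.59%. For the split by CpG the start was that of the promoter table, which gave 2554 genes for γ-H2AX. Among genes with under 1 CpG per 100 bases in their window, 5.81% had a γ-H2AX peak (5.04 to 6.70). The share was 9.25% at 1 to 2, 14.0% at 2 to 4, 21.4% at 4 to 6 and 23.0% (21.3 to 24.8) at 6 to 8, then 21.2% at 8 to 10. In the richest class, 10 or more per 100 bases, it was 17.6% (16.2 to 19.1). HMGA2 and ATM shares stayed between 7.60% and 10.3% in every class. Genes with a γ-H2AX peak had a median of 6.33 CpG per 100 bases and those without had 4, while for HMGA2 both medians were 4.67.

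**Figure D2:**
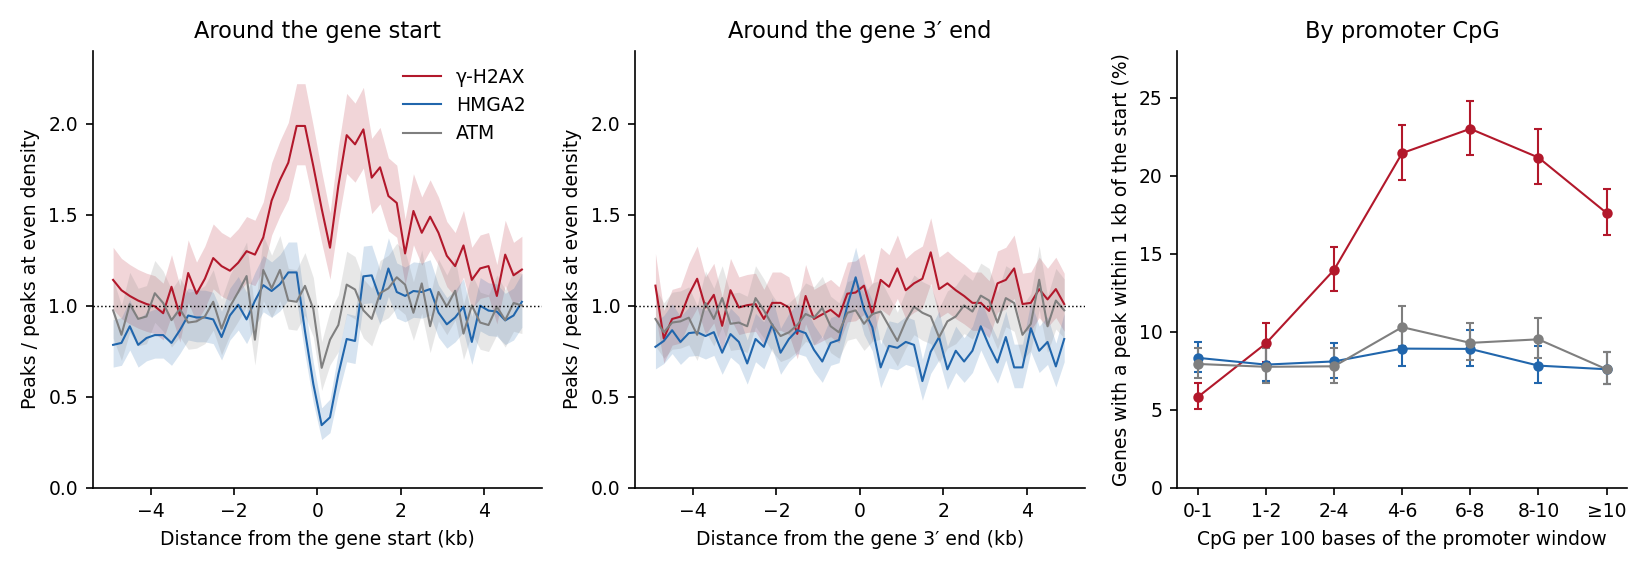
Left and middle: ratio of peaks to even density (y axis) by distance in kb from the start and the 3′ end of 16457 coding genes, in steps of 200 bp, with shaded 95% Poisson intervals. Right: percent of genes with a peak within 1 kb of the start (y axis, 95% Wilson intervals) by promoter CpG per 100 bases; γ-H2AX (red) climbs from 5.81% to 23.0% and ends at 17.6%, while HMGA2 (blue) and ATM (grey) stay between 7.60% and 10.3%.

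Split by CpG, the shoulders belonged to the CpG-rich starts. At 6911 genes with 6 or more CpG per 100 bases, γ-H2AX peaks had a ratio of 2.69 (2.50 to 2.89) between 1000 and 200 bp before the start, 1.64 (1.47 to 1.83) from 200 bp before to 400 bp after it, and 2.63 (2.41 to 2.86) at 400 to 1000 bp after it. At 4343 genes with 2 to 6 CpG, the same 3 ratios were 1.98, 1.99 and 2.16, with no dip. At the 5203 genes with under 2 CpG, they were 0.863, 0.797 and 0.703, below even density. HMGA2 fell to 0.140 in the middle of CpG-rich starts and ATM to 0.607. GC content moves with CpG content, and their separate parts in these values cannot be told apart.

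The authors also deposited a list of γ-H2AX promoter regions, without saying how they were chosen. All 2180 of its autosomal regions had the coordinates of a peak in the list, 1.83% of the peaks. Of the 2129 regions on a chromosome in the promoter table, 80.8% had their midpoint within 1 kb of a RefSeq start, and the median position was 316 bp before it. Their median score was 24.1, against 23.6 for the other peaks.

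Along gene bodies the peaks thinned out from start to end. In 10549 coding genes of 10 kb or more, the first 10% of the body held 5307 γ-H2AX peaks, a ratio of 1.46 to even density (95% interval 1.42 to 1.50). The second 10% had 1.25 (1.21 to 1.29), the fifth 1.16 and the last 1.02 (0.985 to 1.05). Per base, the first 10% held 1.43 times the peaks of the last. Without peaks within 1 kb of any gene end this was 1.36, and in genes of 100 kb or more it was 1.18. HMGA2 went from 1.13 in the first 10% to 0.919 in the last, and ATM from 1.07 to 0.990.

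Peak density per Mb changed little with gene length up to 50 kb. Coding genes under 5 kb had 56.0 peaks per Mb of body, those of 50 to 100 kb the most, 62.5, and the 216 genes of 500 kb or more the fewest, 45.1. HMGA2 differed more over the shorter classes, going from 34.0 per Mb in genes under 5 kb to 62.8 at 50 to 100 kb. The lists parted in the longest class, where HMGA2 had its highest density, 66.1, and γ-H2AX its lowest. ATM stayed between 39.4 and 48.8.

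**Figure D3:**
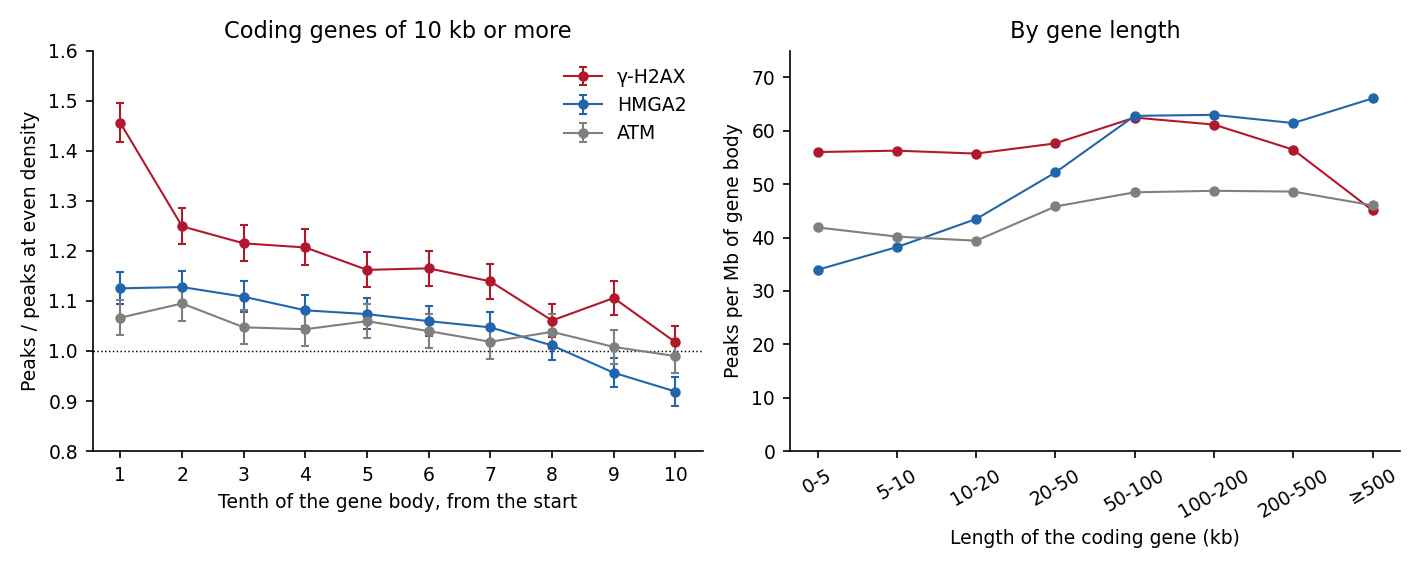
Left: ratio of peaks to even density (y axis, starting at 0.8) in each 10% of the body of 10549 coding genes of 10 kb or more, with 95% Poisson intervals; γ-H2AX (red) goes from 1.46 to 1.02. Right: peaks per Mb of gene body (y axis) by gene length; γ-H2AX is lowest at 45.1 and HMGA2 (blue) highest at 66.1 in genes of 500 kb or more, and ATM is grey.

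At least 1 γ-H2AX peak lay in the body of 56.1% of the 20560 autosomal coding genes (11541), close to the 55.8% that independent counts at even density give. Genes with many peaks were more common than such counts give. There were 3422 genes with 5 or more peaks against 2753 from the Poisson law, a ratio of 1.24, and 1463 with 10 or more against 1059 (1.38). At 50 or more peaks the number was 50 genes against 52.2. For HMGA2, genes with 5 or more peaks had a ratio of 0.988 and those with 50 or more 1.38. ATM gave 1.07 and 1.12.

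The genes with most peaks were very long ones. Macrod2, which encodes an ADP-ribose hydrolase and spans 1998 kb of chromosome 2, held 125 peaks where even density gives 100.1. Pde4d, a cAMP phosphodiesterase gene of chromosome 13, held 116 against 66.4. Among the 10 genes with most peaks, several were not dense for their length. The neural adhesion gene Lsamp had 78 peaks against 108.2, and the receptor phosphatase gene Ptprd 96 against 109.0. Dlg2 (87 peaks) and Robo2 (82), which encode a synaptic scaffold and an axon guidance receptor, were at 1.04 and 1.07 times even density. The others lay above it. Rbms3, an RNA-binding protein gene, held 95 against 51.7, the teneurin gene Tenm3 held 92 against 62.3, Cdk14, a cyclin-dependent kinase gene, held 75 against 26.4, and Lpp, which encodes a focal adhesion protein, held 74 against 29.5. The HMGA2 list is the larger one, with 142818 peaks against 119267. HMGA2 peaks were more numerous than γ-H2AX peaks in Ptprd (212), Lsamp (149), Macrod2 (173), Dlg2 (148), Robo2 (140) and Tenm3 (101). Counts were nearly equal in Pde4d (118 HMGA2 peaks) and Cdk14 (73), and HMGA2 had fewer in Rbms3 (77) and Lpp (56).

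Per Mb of body, the densest of the 3407 coding genes with 20 kb or more and 5 or more peaks were of a different kind. Gdi2, which encodes a regulator of Rab proteins, had 10 γ-H2AX peaks in 28.2 kb, 355 per Mb and 6.95 times even density, beside 2 HMGA2 and 3 ATM peaks. Luc7l3, a splicing factor gene, had 10 in 31.3 kb. Tgfbr1, the type I receptor of TGF-beta, had 18 in 61.7 kb where 2.96 were expected, beside 4 HMGA2 and 4 ATM peaks. Mmp28, a secreted metalloproteinase gene, had 7 γ-H2AX peaks, 1 HMGA2 peak and no ATM peak, and Fxr2, an RNA-binding protein gene, had 6, none and 5. The other members of the top 10 were Socs6 (9 peaks), Nufip2 (9), Emp1 (6), Zbtb25 (6) and Eif2s2 (6), the last of which encodes a subunit of translation initiation factor eIF2. All 10 had γ-H2AX counts above their HMGA2 and ATM counts, a property that choosing them by γ-H2AX density favours. No peak scored 30 or more in Mmp28, Socs6, Nufip2 or Eif2s2, so their density rests on peaks near the threshold.

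The longest coding genes without a γ-H2AX peak were Gm4724 (286 kb), Phactr3 (220 kb), Efcab6 (208 kb), Morc1 (200 kb) and Srrm4 (153 kb), where even density gives 7.01 to 14.3 peaks. Morc1, a germ-cell silencing gene, held 12 HMGA2 and 6 ATM peaks. Srrm4, a neural splicing regulator gene, held 1 and 3. Gm4724 held no peak of any list.

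Gene groups differed in how many γ-H2AX peaks they held for their length. Each group is given by its members with a peak in the body or within 1 kb, where all coding genes had 60.7% (12486 genes), and by its peaks over those at even density, where all coding genes stood at 1.18. Of 14 lists 7 lay above that value and 7 below. No expression was measured in these libraries, and the lists are described with no test.

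Genes that make fibroblast matrix and identity were above it. Of 20 such genes 18 had a peak, and their 108 peaks were 2.14 times even density (HMGA2 1.53, ATM 1.19). Fbn1, the fibrillin gene, held 24 against 10.4, the fibronectin gene Fn1 10 against 3.39, and the collagen gene Col5a1 12 against 7.77. The highest score was at Tnc, the tenascin C gene (56.1). The 14 fibroblast markers, all of them also members of that list, gave 2.23, with 9 peaks against 3.50 at Prrx1, a mesenchymal transcription factor gene. Relative to all coding genes the markers stood at 1.90 with all peaks and at 1.22 (95% interval 0.395 to 2.84) with peaks of score 30 or more. The longer list stood at 1.81 and, with those stronger peaks, at 1.88 (0.971 to 3.28), so that both intervals then included 1.

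Housekeeping genes, short ones with a median of 4.32 kb, so that the 1 kb on either side weighs more, had the highest ratio, 2.91, from 25 peaks in 12 of 18 genes, with HMGA2 at 1.10 and ATM at 0.747. The β-actin gene Actb had 4 γ-H2AX peaks in and around 4.86 kb, where 0.314 were expected, and no HMGA2 or ATM peak. Sdha, a subunit gene of succinate dehydrogenase, had 5 against 1.53. Genes of transcription elongation and topoisomerases stood at 2.13, with 12 of 16 carrying a peak. Among them Ell2, an elongation factor gene, had 10 against 3.41, and Top1, the topoisomerase I gene, had 7 against 3.95. HMGA2 was also high in this list (1.78), with 13 peaks in Ell2.

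Of the HMG protein genes 5 of 7 on autosomes had a peak, at 2.45 times even density, and most of the 24 peaks were in 1 gene, without which the ratio was 2.44. Hmga2 itself held 15 γ-H2AX peaks against 6.10, beside 14 HMGA2 and 7 ATM peaks. Hmgn3 had 4 and Hmga1 had 2. Genes for writers and readers of γ-H2AX had a peak in 20 of 23 cases, 87.0%, where the Poisson law gives 81.1% at these lengths. ATM had a peak in 20 of them and HMGA2 in 19. The γ-H2AX ratio was 1.39, with 9 peaks in Bard1 against 3.77 and 9 in Atr against 4.78. Relative to all coding genes this list stood at 1.18, with a 95% interval (0.962 to 1.43) that included 1. Immediate early genes, which are short, had a peak in 8 of 16 cases, 9 peaks in all and a ratio of 1.31 (HMGA2 0.965, ATM 1.54). HMGA2 also had a peak in 8 of them. Relative to all coding genes the γ-H2AX value was 1.11, with a 95% interval (0.509 to 2.11) that included 1. Jun and Klf4 had 1 each in the body, and the single peak of Myc lay outside its body.

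As lists, markers of other cell types had lower ratios than all coding genes, beyond counting error only for neurons. Some members had more peaks than even density gives. Endothelial markers stood at 1.00 (6 of 10 genes with a peak), epithelial ones at 0.979 (8 of 11), blood ones at 0.913 (5 of 12) and neuronal ones at 0.653 (8 of 11). Relative to all coding genes, blood markers stood at 0.776 (Poisson interval 0.467 to 1.21), epithelial ones at 0.832 (0.466 to 1.37) and endothelial ones at 0.853 (0.594 to 1.19). These intervals included equality with all coding genes, so no difference is shown for these lists. The neuronal interval lay below equality, at 0.554 (0.386 to 0.771). The low neuronal value rested largely on Rbfox3, which encodes the neuronal protein NeuN and had 6 peaks where 20.9 were expected. Without it the other neuronal markers had 29 against 32.7, a ratio of 0.887, and Map2, a microtubule protein gene of neurons, had 16 against 13.1. The epithelial share, 72.7%, lay above the 47.1% that the Poisson law gives for genes of these lengths. Among endothelial markers Emcn, the endomucin gene, had 9 against 4.96 and Kdr, a VEGF receptor gene, 7 against 2.21, and the leukocyte gene Ptprc had 11 against 5.59. With scores of 30 or more the endothelial list stood at 1.60 times all coding genes (0.644 to 3.30), against 0.853 with all peaks. Long genes of fragile sites and neuronal adhesion stood at 0.826 times even density, against 1.16 for HMGA2; all 20 had a peak of each list, as the Poisson law gives at such lengths. Fhit, at a known fragile site, held 67 against 73.5.

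Olfactory receptors were the lowest. Only 84 of 1103 had a γ-H2AX peak, 7.62% (6.19 to 9.33), where the Poisson law gives 16.1%, and their 93 peaks were 0.449 times even density. HMGA2 stood at 1.19 in the same genes and ATM at 0.720. Vomeronasal receptors, the other large sensory family, stood at 0.710 for γ-H2AX and 1.30 for HMGA2. Members of these families are near copies of each other, so counts of single members are uncertain.

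**Figure D4:**
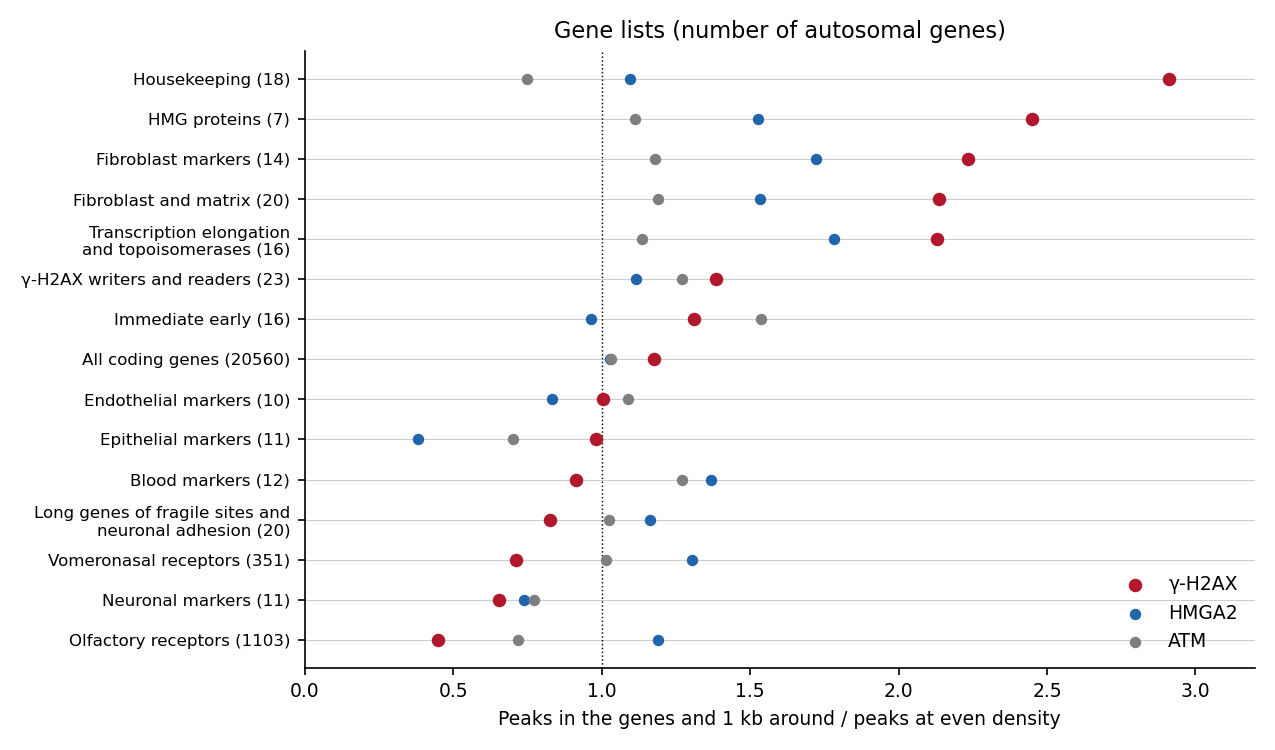
Peaks in the genes of each list and 1 kb around them, divided by the number at even density (x axis), for γ-H2AX (red), HMGA2 (blue) and ATM (grey); numbers in brackets are autosomal genes. For γ-H2AX the housekeeping list stands at 2.91, all coding genes at 1.18 and olfactory receptors at 0.449.

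Neighbouring γ-H2AX peaks lay closer together than even density gives. The median distance between midpoints was 12 kb, where an exponential law with the same mean distance, 20.1 kb, gives 14.0 kb. Distances ran from 119 bp to 961 kb. Shares by distance were set beside an exponential law with the density of each autosome. Distances under 1 kb made up 6.00% (5.87 to 6.13) against 4.74%, a ratio of 1.26, and those over 100 kb made up 1.67% against 0.801%. At under 0.5 kb the ratio was 1.11 and at 0.5 to 1 kb 1.43. For distances under 1 kb HMGA2 had a ratio of 1.40 and ATM 0.988. Peaks with distances under 1 kb formed 6049 pairs, 458 runs of 3 and 60 runs of 4 or more.

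The longest runs held 5 peaks. Of these, 1 lay in or within 1 kb of Fcgr3, an Fc receptor gene, and another 13.1 kb from it, with a top score of 49.3. Runs of 5 also lay in Mmp28, within 1.78 kb, and in Socs6. Swap70 and P4htm, which encodes a prolyl hydroxylase, had such a run in the gene or within 1 kb. The remaining runs of 5 lay 3.92 kb from Dguok and 166 kb from Bckdhb.

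Long stretches without γ-H2AX peaks were more frequent than the exponential law gives. Gaps of 100 kb or more numbered 1986 against 955, and there were 32 of 300 kb or more where the law gives 0.076. HMGA2 had 35 and ATM 13 gaps of that size. Of the 32 γ-H2AX gaps, none was free of both HMGA2 and ATM peaks. Most were nevertheless sparse in the references too, beside 58.0 HMGA2 and 45.6 ATM peaks per Mb of autosome. A 458 kb gap on chromosome 5 from 36.9 Mb held 3 HMGA2 and 11 ATM peaks. Another of 392 kb on chromosome 10 held 0 and 4. The longest, 961 kb on chromosome 2 from 176.1 Mb, held 6 HMGA2 and 3 ATM peaks and 9 coding genes, among them the zinc-finger genes Zfp967 and Zfp973. The next, 698 kb, lay on the same chromosome near 175 Mb, also in a zinc-finger cluster. Others touched 1 coding gene, such as Bcl11a, a blood and neural transcription factor gene. Its 310 kb gap held 13 HMGA2 and 16 ATM peaks, the highest ATM count of the 32 gaps.

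Over 1-Mb windows the density of γ-H2AX peaks varied more than even density allows. In 2451 windows the variance was 7.49 times the mean, where independent positions give about 1, against 11.3 for HMGA2 and 3.76 for ATM. Of these windows 57 held no peak of any list. They are the 3 windows without sequence at the head of each of the 19 autosomes, which could hold none. Without them the values were 6.33, 9.89 and 2.67. The 2394 windows with a peak of any list had a median of 48 γ-H2AX peaks, with 10% at 28 or fewer and 10% at 73 or more. Neighbouring windows resembled each other, with a Pearson correlation of 0.386 over 2375 pairs. Across windows γ-H2AX counts correlated with ATM counts at 0.539 and with HMGA2 counts at 0.334. Windows share the sequence that can be mapped, so these values describe the lists and carry no test.

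The share of a window inside genes separated the 3 lists. Windows with under 20% in genes had 38.4 ± 13.6 γ-H2AX peaks (SD over 373 windows), and those with 60% to 80% had 54.3 ± 17.6 (734 windows), after which the mean was 51.4. HMGA2 fell over the same classes from 75.7 to 52.3, and ATM went from 45.3 to 46.2. The correlation with the share in genes was 0.258 for γ-H2AX, -0.006 for ATM and -0.314 for HMGA2.

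**Figure D5:**
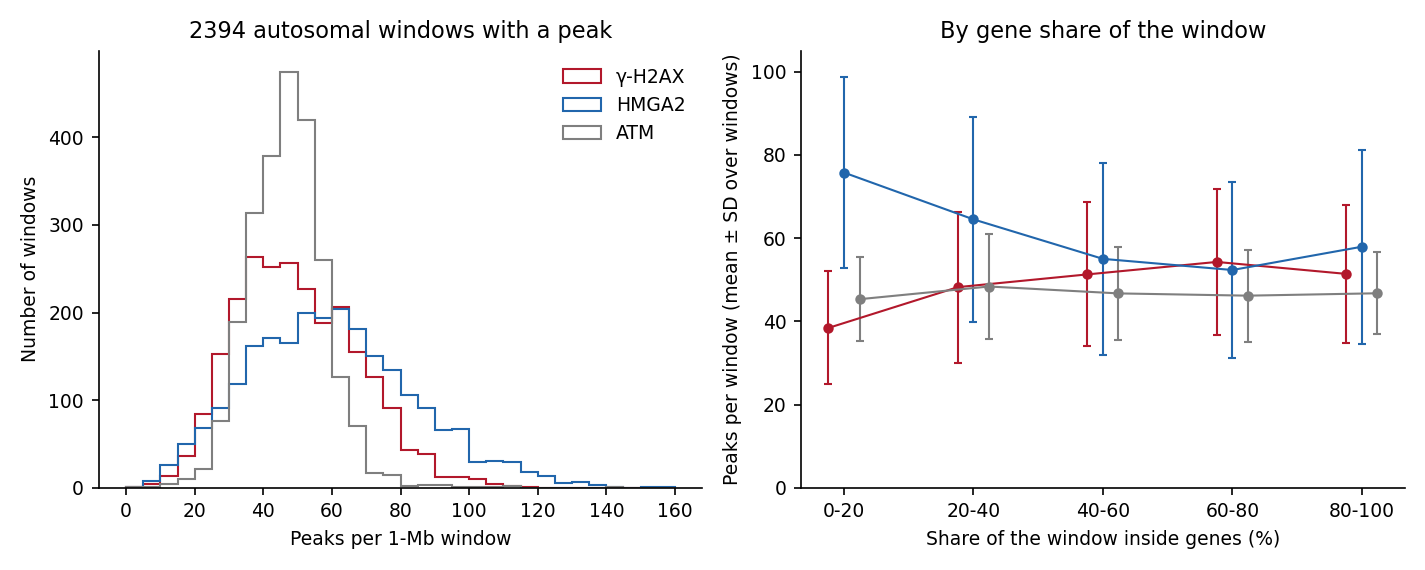
Left: number of 1-Mb windows (y axis) by peaks per window for γ-H2AX (red), HMGA2 (blue) and ATM (grey) in 2394 windows. Right: peaks per window (y axis, mean ± SD over windows) by the share of the window inside genes; γ-H2AX goes from 38.4 to 54.3 and HMGA2 from 75.7 to 52.3 between the first and the fourth class.

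The densest window lay at 84 to 85 Mb of chromosome 4, with 115 γ-H2AX peaks beside 103 HMGA2 and 54 ATM peaks, and holds Bnc2, a zinc-finger gene, and Cntln, a centriole gene. Next came chromosome 15 at 62 to 63 Mb, with 111 peaks and no coding gene. The window of chromosome 17 with Rmdn2, Prkd3 and Atl2 had 110, and 2 windows had 108, that of Cmss1, Filip1l and the collagen gene Col8a1 on chromosome 16 and that of Fbn1 on chromosome 2. The longest run of dense windows spanned 6 Mb of chromosome 4, from 54 to 60 Mb, at 79.3 peaks per Mb, and includes Pakap and the matrix gene Svep1. Sparsest was the zinc-finger window of chromosome 2 at 176 to 177 Mb, with 1 peak, and it was nearly empty in the references too, with 6 HMGA2 and 4 ATM peaks where the medians were 58 and 47. The window of Cit and Srrm4 on chromosome 5 had 7 γ-H2AX, 12 HMGA2 and 26 ATM peaks, and that of Gm40847 on chromosome 12 had 7, 8 and 27. Where ATM had at least 30 peaks, the fewest γ-H2AX peaks were 12, in the window of the glutamate receptor gene Grin2a and in that of Vstm2b.

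The strongest γ-H2AX peak in a gene lay in Ror2, a Wnt5a receptor gene, at chr13:53269852-53270125 (score 115). It overlapped peaks of both references. Without an overlap to either reference were those in Myo3a (90.3), Rora (85.6), Ranbp17 (76.7), Cald1 (76.1) and Dcc (72.4). Rora encodes a nuclear receptor and Cald1 an actin-binding protein of contractile cells. Peaks in Dop1b (94.1), Hsd11b1 (84.3) and Foxp1 (73.2) overlapped both references, and that in Greb1 (74.0) the ATM list. The 5 highest intergenic scores, from 125 to 670, were at sites where each peak overlapped a HMGA2 or an ATM peak.

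Few γ-H2AX peaks coincided with a reference peak, though more than rotations give. With at least 1 bp in common, 3.25% overlapped an HMGA2 peak against 2.02% (ratio 1.61), and 2.68% an ATM peak against 1.57% (ratio 1.71). The ratios by place were set against shifts of 50 to 100 kb, under which the overall ratios were 1.48 for HMGA2 and 1.58 for ATM. On that scale the HMGA2 ratio was 1.55 inside genes, 1.56 at gene ends and 1.39 between genes, and the ATM ratio 1.54, 1.74 and 1.59. Since few peaks were shared, leaving them out could change the gene ratios only a little. Without them the body ratio was 1.14, the gene end ratio 1.19 and the start ratio 1.71. How much of the overlap comes from background that all libraries share was not tested.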

How the data were processed

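ChIP-seq libraries of wild-type MEF were used as the peak lists the authors deposited. Per the labels, MACS14 called them with its model switched off, with p set to 0.01 and reads shifted by 30 bp. Trimmomatic, Bowtie2, SAMtools, HOMER and the mm10 build stand in the submitters' processing notes, where no version is named. Which control the calls used, and the depth of the library, are not given in the sources used here. The deposited score of each peak is the authors' -10 times log10 of p, and served only for ranking and filtering inside 1 list. A deposited list of γ-H2AX promoter regions (unit other: the authors' start and end) was matched to the peaks.

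Python 3.11.15, numpy 2.4.6, pandas 2.3.3 and scipy 1.17.1 were used. Coordinates were counted from 1. Genes were 46714 autosomal RefSeq genes on GRCm38.p6; 328 entries placed in the first 3 Mb of an autosome, which carries no sequence, were left out. An autosome ran from its first base to its last gene or peak, so these 3 Mb counted in its length for rotations and even density. Promoter windows covered 80.0% of the 20560 coding genes. "Even density" is the peak number of an autosome divided by its length. Intervals are 95% Wilson intervals for shares and Poisson intervals for ratios of counts. No test was run, because a single library has no replicate. The measures were checked on simulated lists. Named genes were those with most peaks or the highest density, the longest without a peak, those at the highest-scoring peaks and in extreme windows, the leading members of each list, and promoters by peak score. The members and lists were chosen with earlier results of these data known. The splits by CpG and motif and the tRNA genes were added after seeing the data. Alternatives were other score thresholds, places, windows, overlaps and shifts. Of the leading list members, 1 is not reported here.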

Additional observations from a re-analysis of the deposited data

Results flagged for a closer look

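The γ-H2AX peaks of the sex chromosomes entered no comparison. Chromosome X held 5580 peaks, or 32.7 per Mb, below the 42.3 to 53.9 per Mb of the 19 autosomes. Chromosome Y held 100 peaks, or 1.10 per Mb. The labels give neither the sex nor the number of embryos, and both values are listed because no comparison of the report uses these chromosomes.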

How the results depend on the processing

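No paired analysis was possible because each antibody and genotype has 1 library. The directions of the gene body, gene end, intergenic, spacing, gene start and overlap ratios were the same under every alternative run; sizes moved as follows. With scores of 30 or more, the body ratio was 1.17, gene end 1.34, intergenic 0.818, spacing 2.10, starts 2.27, first against last 10% of gene bodies 1.68, HMGA2 overlap 1.91 and ATM overlap 2.23, window variance over mean 2.10, and genes with 5 or more peaks 136 (3422 with all peaks), since the list is then 12371 peaks. With 50 or more, body was 1.15, end 1.24 and intergenic 0.829. In windows with a peak only, body was 1.11, end 1.16, intergenic 0.879 and window variance over mean 6.33. With shifts of 50 to 100 kb, body was 1.04, end 1.11, intergenic 0.948, starts 1.57, HMGA2 overlap 1.48 and ATM overlap 1.58; the 3′ end ratio turned from 1.05 to 0.971. With coding genes only, body was 1.17, end 1.37 and intergenic 0.877. A 5 kb window gave an end ratio of 1.11, and 250 bp gave 1.55 at starts. Spacing was 1.23 at 5 kb and 1.49 from edge to edge. The variance over mean was 5.01 in 500 kb windows, 16.5 in 5 Mb windows and 6.93 without shared peaks. Overlap of at least 50% of the peak gave 1.74 for HMGA2 and 1.95 for ATM. The first 10% held 1.36 times the last without gene ends and 1.18 times in genes of 100 kb or more. The CpG difference was 1.00 per 100 bases within 250 bp of the start, against 2.33. The number of lists above all coding genes was 7 under each alternative. At scores of 30 or more, endothelial markers had taken the place of immediate early genes among them. With scores of 30 or more, immediate early genes had 0 peaks, endothelial markers turned from 0.853 to 1.60 times all coding genes, HMG genes went from 2.08 to 3.97, elongation genes from 1.81 to 3.29, fibroblast markers from 1.90 to 1.22, blood markers from 0.776 to 0.376, vomeronasal receptors from 0.603 to 0.399 and epithelial markers from 0.832 to 0. Tgfbr1 went from 6.08 to 22.3 times even density, Zbtb25 from 6.08 to 20.1, Luc7l3 from 6.48 to 12.4, Emp1 from 6.16 to 9.99 and Fxr2 from 5.98 to 9.54. Ptprd turned to 1.04 times even density, and Mmp28, Socs6, Nufip2 and Eif2s2 were at 0. In the short genes these ratios rest on few peaks, since only 10.4% of the list scored 30 or more. Even with all peaks, 0.974 were expected in Emp1 and 1.00 in Fxr2. No interval was computed for single genes at this score. Other causes of these moves were not tested. The gene start, 3′ end and gene body gradient alternatives, and the lists without Rbfox3 or Hmga2, were chosen after seeing the data. Without read counts or input, how far depth limits weak peaks is unknown.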

Other observations

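Transfer RNA genes, transcribed by RNA polymerase III, had the highest γ-H2AX ratio at gene ends of the RefSeq gene types looked at, where protein-coding genes had 1.37. They were noticed after the data were seen. Within 1 kb of 386 autosomal tRNA genes lay 90 γ-H2AX peaks where even density gives 31.4, a ratio of 2.87. A peak was near 99 of the genes, 25.6% (95% Wilson interval 21.5 to 30.2), or at 63 of 253 separate sites, since many tRNA genes sit in clusters. The number was above even density on 16 of the 18 autosomes with tRNA genes, and 23 of the peaks were on chromosome 13, where 8.65 were expected. HMGA2 had 45 peaks against 37.4, of which 21 lay on chromosome 13, where 10.5 were expected, and ATM had 40 against 29.4. Small nucleolar and small nuclear RNA genes had lower γ-H2AX ratios around their ends, 1.17 and 1.20, close to that of all genes, and miRNA genes had 1.25.

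Short motifs before the start were also searched on both strands. The GC box (GGGCGG or CCGCCC) stood in the 250 bases before the start of 43.6% of 16457 promoters. It was in 53.4% of those with a γ-H2AX peak within 1 kb and 41.8% of those without. Among promoters with 4 to 8 CpG per 100 bases the shares were 57.5% (987 promoters) and 58.7% (3447), so the difference was not seen at like CpG content. The TATA box (TATAAA or TTTATA) was in 7.99% of promoters with a γ-H2AX peak and 13.4% of those without, and in 5.98% and 6.32% at 4 to 8 CpG. The CCAAT box (CCAAT or ATTGG) was in 39.3% and 35.7%, and in 41.0% and 39.7% at 4 to 8 CpG.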
